A study of Mus musculus with 6 samples.

Results

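The genes examined here encode secreted proteins that organize synapses, and their receptors. They are the C1q-like genes C1ql1, C1ql2 and C1ql3, the cerebellins Cbln1, Cbln2 and Cbln4, the neuronal pentraxins Nptx1 and Nptx2 with the pentraxin receptor Nptxr, and Adgrb3, which encodes the adhesion receptor BAI3. These 10 genes were taken by symbol from a raw count table of 55471 genes, and all 10 were found there. They were selected on the same comparison: C1ql2 and Nptx2 were chosen by their log2 fold change between the genotypes, already known to be negative, and the others are their relatives and partners. Their fold changes and calls are therefore given as a description, without p-values.

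C1q-like proteins are released from axons, among them the mossy fibers of dentate granule cells, and bind BAI3 and neurexins. At mossy fiber synapses the products of C1ql2 and C1ql3 recruit kainate-type glutamate receptors. Cerebellins bridge presynaptic neurexins and postsynaptic GluD receptors, and cerebellin 4 also binds DCC and neogenin. Neuronal pentraxins cluster AMPA-type glutamate receptors, with Nptxr as the membrane-anchored member that the protease ADAM17 can release, and Nptx2 (also called Narp) is known as an activity-regulated gene.

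Total RNA was sequenced from the hippocampus of C57BL/6 mice aged 3 to 6 months, in 3 Control and 3 CBP-ifKO samples. CBP-ifKO mice carry floxed Crebbp alleles, which encode the lysine acetyltransferase CBP, and a tamoxifen-inducible Cre recombinase (creERT2) that the Camk2a promoter drives in excitatory neurons of the forebrain. Control mice were littermates without the recombinase per the treatment protocol, although the description field of the Control samples names it. Both genotypes received 5 intragastric administrations of tamoxifen (20 mg/mL in corn oil). Since the transgene was present in the mutants only, its effect and that of the loss of CBP cannot be told apart from these samples alone. For mice lacking the CBP paralog p300 through the same driver, which are not among these samples, the paper reports only Arsi and Esr1 as changed. That screen was a separate experiment on individual males. Per the study's methods a sample pools hippocampi of females, so p-values measure the spread between pools.

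The targeted gene and the recombinase matched the genotypes. Crebbp was at 156.4 to 208.6 CPM (counts scaled by TMM to libraries of equal size) in Control and 87.1 to 108.6 CPM in CBP-ifKO (log2 fold change -0.96, adjusted p 3.63e-05 in edgeR). Esr1, part of which is contained in the recombinase, was at 5.65 to 6.29 CPM in Control and 63.6 to 69.4 CPM in CBP-ifKO. Libraries held 10199008 to 14950257 counts. Of all genes, 17981 passed the filter on low counts, and 1149 of them passed an adjusted p under 0.05 (edgeR), 897 lower and 252 higher in CBP-ifKO. The share of lower calls, 78.1%, was 56.5% with scaling by library totals alone and 66.3% after removal of trends on GC content and gene length.

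Within each family the genes are close relatives, and the reads were 50 bases long, so their sequences bear on whether reads could be shared between them. The aligned coding sequences of C1ql2 and C1ql3 were identical at 76.5% of positions, with a longest identical run of 38 bases. Nptx1 and Nptx2 were identical at 68.2%, with a longest run of 16 bases. The best matching stretches of 90 coding bases are shown because they are the places where the relatives are hardest to separate, with capitals at the positions that differ within each pair (GRCm38). In C1ql2 the stretch is in exon 1, at chr1:120341619-120341708 on the plus strand, and in C1ql3 in exon 1, at chr2:13010353-13010442 on the minus strand. In Nptx2 it is in exon 3, at chr5:144553555-144553644 on the plus strand, and in Nptx1 in exon 3, at chr11:119544592-119544681 on the minus strand.
C1ql2: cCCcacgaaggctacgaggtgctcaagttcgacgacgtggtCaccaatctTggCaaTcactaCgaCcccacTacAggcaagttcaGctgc
C1ql3: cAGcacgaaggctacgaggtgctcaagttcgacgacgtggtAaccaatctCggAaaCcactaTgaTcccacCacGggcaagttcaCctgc
Nptx2: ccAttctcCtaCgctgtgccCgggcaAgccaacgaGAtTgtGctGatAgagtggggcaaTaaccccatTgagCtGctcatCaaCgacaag
Nptx1: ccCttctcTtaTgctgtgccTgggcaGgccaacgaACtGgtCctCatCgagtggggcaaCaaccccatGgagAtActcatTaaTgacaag
The C1q-like pair differed at 11 of the 90 bases and the pentraxin pair at 17. No run of 50 exonic bases was shared between any of the 10 genes, so a full-length read without errors could come from only one of them.

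Of the 10 genes, 4 passed the threshold (40%), all lower in CBP-ifKO: C1ql2, Cbln1, Nptx2 and Nptxr. Over all genes tested, 6.39% were called in either direction and 4.99% were called lower, but these 10 genes were chosen with the contrast in view, so nothing is read from the difference. All 10 passed the filter on low counts, Cbln1 through its Control libraries. The fitted difference was negative in 9 genes and positive in C1ql3. Its median over the 10 was -0.37 on the log2 scale, against -0.0033 over all genes tested. In 6 of the 10 the 2 genotypes did not overlap, with 5 lower and 1 higher. Of all genes tested, 25.6% did not overlap, 13.9% on the lower and 11.8% on the higher side, and 1.40% were called higher. DESeq2 called 3 of the 10 and 5.30% of all genes. In bulk tissue such as this, fewer cells of a type and less RNA per cell cannot be told apart.

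**Figure D1:**
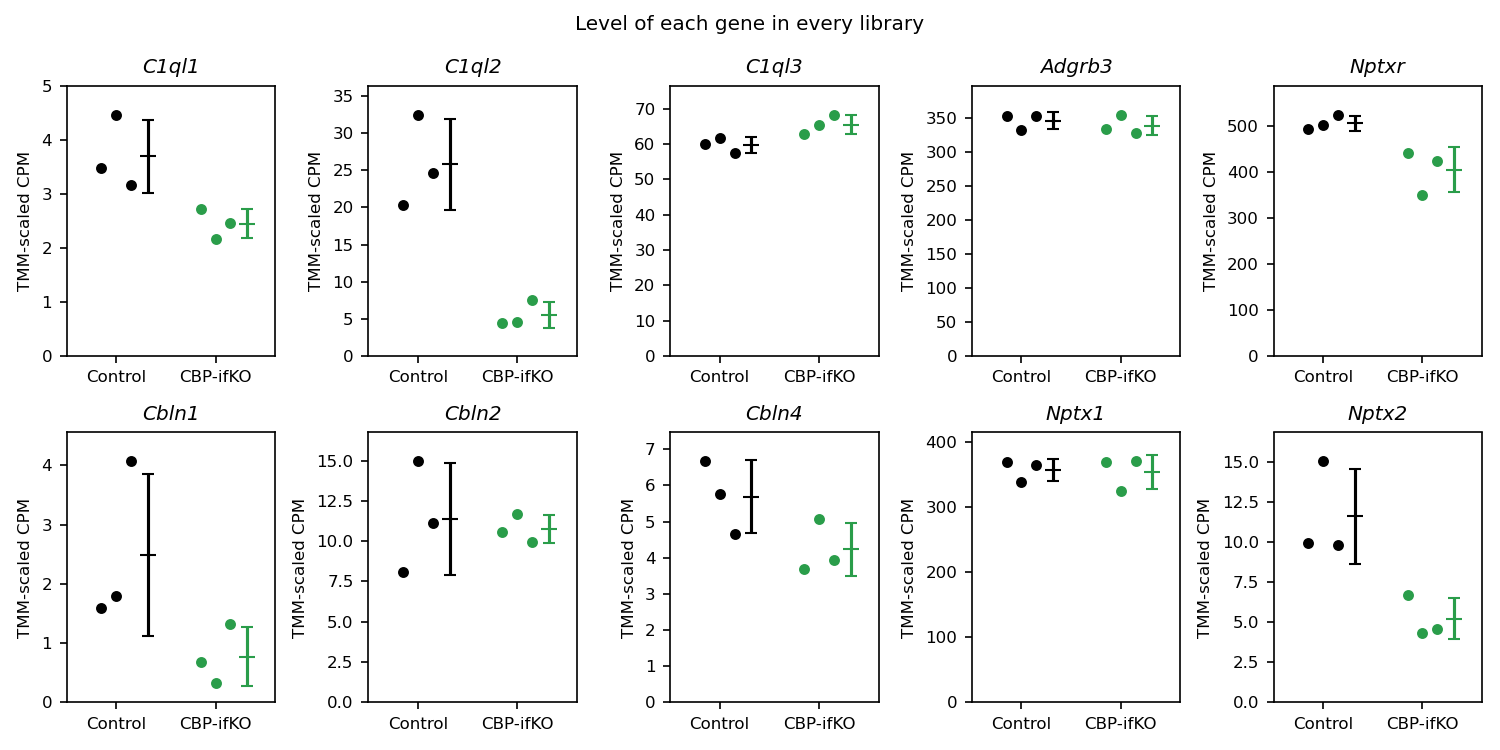
Level of each gene in TMM-scaled CPM (y axis, from 0, separate for each gene) in the 3 Control (black) and 3 CBP-ifKO (green) libraries, in replicate order, with mean and SD beside the points. C1ql2 and Nptx2 show a gap between the genotypes (20.3 to 32.5 against 4.46 to 7.57 CPM for C1ql2), whereas the Nptx1 and Adgrb3 points overlap.

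The secreted C1q-like ligands differed from one another. C1ql2 (ENSMUSG00000036907, chromosome 1, 120340582 to 120343174, plus strand) had 216, 378 and 249 counts in Control and 46, 70 and 92 in CBP-ifKO, in the order of the replicate numbers, which is kept below. Scaled, these were 20.3, 32.5 and 24.7 CPM in Control and 4.46, 4.60 and 7.57 CPM in CBP-ifKO. Every mutant library was below every Control library. The mean fell from 25.8 ± 6.17 to 5.54 ± 1.76 CPM (SD, n = 3), or to 21.5%, with a log2 fold change of -2.22 (SE 0.19). It was the largest difference among the 10 genes. C1ql2, Cbln1 and Nptx2 were both called and at least 2-fold lower, as were 0.350% of all genes tested. Since C1ql2 and Nptx2 were chosen by this fold change and Cbln1 passed the filter through its Control libraries, nothing is read from that share.

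The coding sequence of C1ql2 was identical to that of C1ql3 at 76.5% of aligned positions and to that of C1ql1 at 75.9%. C1ql3 (ENSMUSG00000049630, chromosome 2, 13003457 to 13011806, minus strand) did not share the pattern of C1ql2. It was at 59.99, 61.8 and 57.4 CPM in Control and 62.8, 65.3 and 68.2 CPM in CBP-ifKO. The mutant libraries were all above the Control libraries, but narrowly. The means were 59.7 ± 2.18 and 65.4 ± 2.71 CPM, a log2 fold change of 0.13 (SE 0.068) that did not pass the threshold. Its exons overlap unnamed genes on the other strand, with 61.0% of exon bases shared with Gm37811 and 3.16% with Gm37824, and the strand setting of the counting is not stated in the sources used here. Gm37811 had at most 18 counts in any library, against at least 579 for C1ql3, which does not show how reads in shared bases were counted. Gm37824 had 162, 169 and 150 counts in Control and 163, 258 and 220 in CBP-ifKO, a log2 fold change of 0.19 that had the sign of that of C1ql3 and did not pass the threshold. Its part in the result was not tested.

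C1ql1 (ENSMUSG00000045532, chromosome 11, 102939264 to 102946688, minus strand), whose product binds BAI3 at climbing fiber synapses of the cerebellum, was scarce in these samples. It had 37, 52 and 32 counts in Control and 28, 33 and 30 in CBP-ifKO, or 3.47, 4.47 and 3.17 against 2.71, 2.17 and 2.47 CPM. The genotypes did not overlap, but the log2 fold change of -0.62 (SE 0.22) did not pass the threshold. It was -0.27 after removal of GC and length trends, C1ql1 having the highest GC content of the 10 (65.8% in its longest transcript). Markers of oligodendrocyte precursors moved in the same direction as C1ql1, and 3 of 5 were called lower (Pdgfra, Cspg4 and Gpr17), against 4.99% of all genes tested. These markers were chosen with earlier results of these data known, so nothing is read from the difference. The 5 summed to 155.9 to 164.2 CPM in Control and 118.5 to 120.0 CPM in CBP-ifKO. Markers of CA1, CA2, CA3 and interneurons, given below, had lower calls too. The part of any of these cells in the result was not tested.

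Adgrb3 (ENSMUSG00000033569, chromosome 1, 25067476 to 25829707, minus strand) encodes the receptor that C1q-like proteins bind. It was at 353, 332 and 353 CPM in Control and 334, 354 and 327 CPM in CBP-ifKO, so that the genotypes overlapped. The means were 345.8 ± 12.3 and 338.3 ± 14.1 CPM, with a log2 fold change of -0.03 (SE 0.057). With 3447 to 5387 counts per library, Adgrb3 had a smaller SE than C1ql1, whose libraries held 28 to 52.

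The cerebellins were the least abundant family. Cbln1 (ENSMUSG00000031654, chromosome 8, 87468405 to 87472609, minus strand), the classical ligand of GluD receptors in the cerebellum, had only 17, 21 and 41 counts in Control and 7, 5 and 16 in CBP-ifKO. That is 1.596, 1.80 and 4.07 CPM against 0.678, 0.329 and 1.32 CPM, without overlap. The mean fell from 2.49 ± 1.37 to 0.775 ± 0.501 CPM, 31.1% of the Control level, a log2 fold change of -1.70 (SE 0.45). The call rests on few counts and on single libraries: it was lost without Control replicate 3 (log2 fold change -1.17), CBP-ifKO replicate 1 (-1.65) or CBP-ifKO replicate 2 (-1.25). Control replicate 3 had more Cbln1 counts than both other Control libraries together. Cerebellar markers, given because dissections may carry neighboring tissue, summed to 1.502 to 1.88 CPM in Control and 1.48 to 2.23 CPM in CBP-ifKO, with none of the 5 at 0 in all 6 libraries and none high enough to be tested. Thalamic markers summed to 49.6 to 61.4 and 47.9 to 51.7 CPM, and 0 of the 5 tested were called. The part of either in the result was not tested.

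Cbln2 (ENSMUSG00000024647, chromosome 18, 86711110 to 86718283, plus strand) was at 8.07, 14.9 and 11.1 CPM in Control and 10.6, 11.7 and 9.96 CPM in CBP-ifKO. The mutant values lay inside the Control range, and the log2 fold change was -0.08 (SE 0.17). Its sign rested on Control replicate 2, without which the value was 0.18. Cbln4 (ENSMUSG00000067578, chromosome 2, 172036233 to 172043466, minus strand), whose product also binds DCC, was at 6.67, 5.75 and 4.66 CPM in Control and 3.68, 5.06 and 3.95 CPM in CBP-ifKO. CBP-ifKO replicate 2 lay above Control replicate 3, so the genotypes overlapped. The log2 fold change of -0.41 (SE 0.19) did not pass the threshold, with 38 to 77 counts per library behind it.

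Among the pentraxins, the activity-regulated Nptx2 differed while its secreted relative Nptx1 overlapped between genotypes. Nptx2 (ENSMUSG00000059991, chromosome 5, 144545902 to 144557478, plus strand) had 106, 175 and 99 counts in Control and 69, 66 and 56 in CBP-ifKO. In CPM these were 9.95, 15.03 and 9.82 against 6.69, 4.34 and 4.61. All mutant libraries were below all Control libraries, and the Control spread came from replicate 2, which stood above the other pair. The mean fell from 11.6 ± 2.97 to 5.21 ± 1.29 CPM, 44.9% of the Control level, a log2 fold change of -1.19 (SE 0.20). Without Control replicate 2 it was -0.94 and still past the threshold.

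Nptx1 (ENSMUSG00000025582, chromosome 11, 119538719 to 119547753, minus strand) was at 369, 337 and 363 CPM in Control and 368, 324 and 369 CPM in CBP-ifKO. The mutant mean was 99.2% of the Control mean, with a log2 fold change of -0.01 (SE 0.064) whose sign depended on the scaling. Nptxr (ENSMUSG00000022421, chromosome 15, 79786351 to 79804766, minus strand), the membrane-anchored pentraxin, was at 492, 500.4 and 523 CPM in Control and 440.4, 349 and 422 CPM in CBP-ifKO. The genotypes did not overlap, and the mean fell from 505 ± 16.2 to 404 ± 48.4 CPM, a log2 fold change of -0.32 (SE 0.073). The call was lost without Control replicate 3 (-0.29) or CBP-ifKO replicate 2 (-0.22), which had the lowest mutant level, and after removal of GC and length trends (-0.14), though not when the replicate block was added to the latter (-0.13). Exons of Nptxr share 17.2% of their bases with Npcd on the same strand, and Npcd was listed at 0 counts in every library. How reads in the shared bases were counted is not given in the sources used here, so the 0 does not show that they went to Nptxr.

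**Figure D2:**
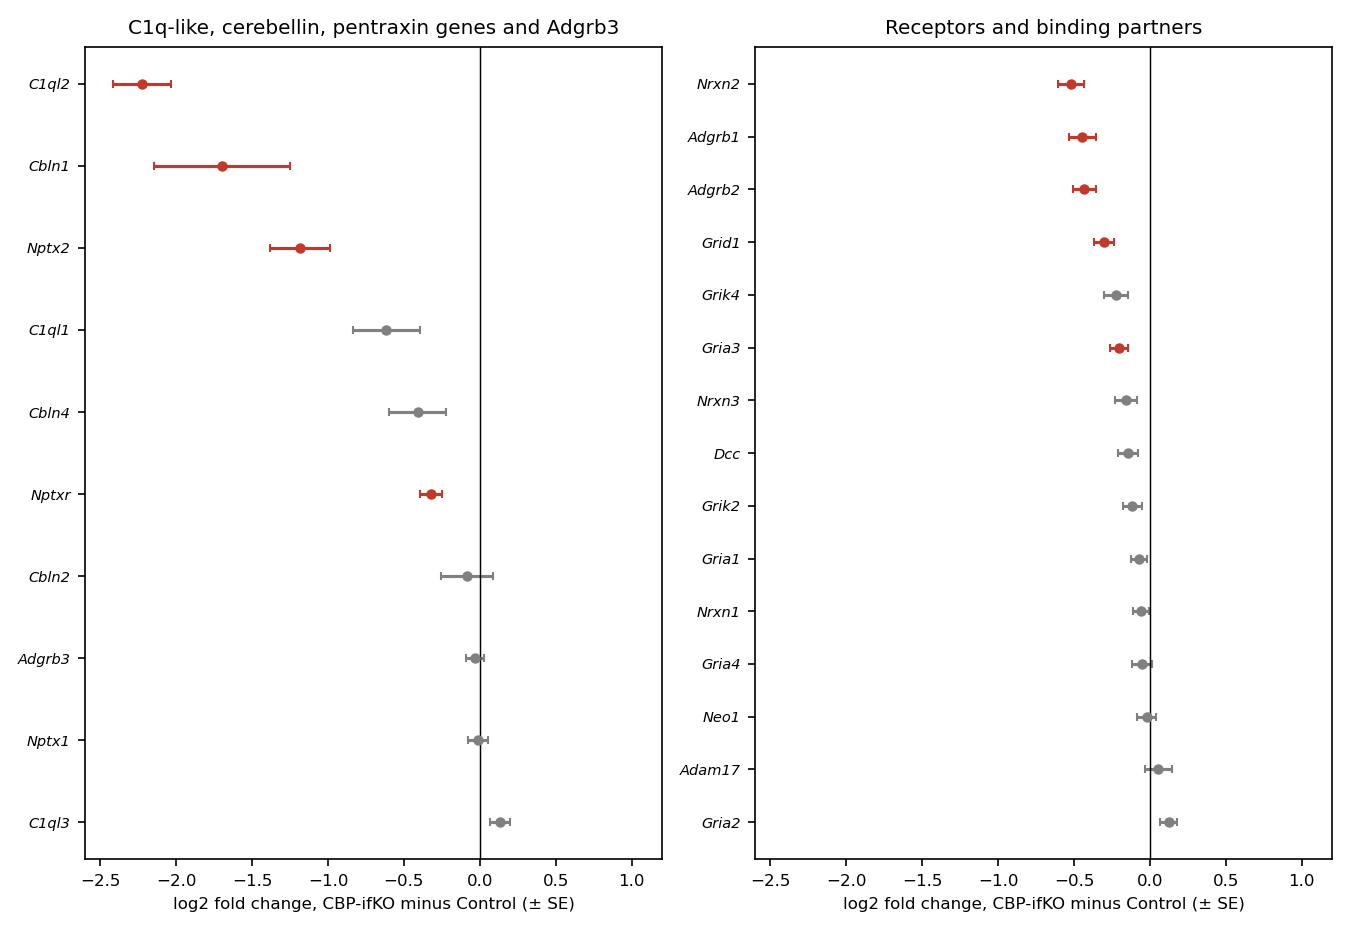
Log2 fold change (x axis, CBP-ifKO minus Control) with its SE for the 10 genes (left) and for 15 receptors and binding partners (right), with red for genes past the threshold of edgeR's adjusted p under 0.05 and grey for the others. C1ql2, Cbln1 and Nptx2 lie beyond -1 on the left, and the partners plotted lie between -0.52 and 0.13.

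Levels of different genes can be compared only per length, here as RPKM over the union of exons. For C1ql3 and Nptxr, reads in exon bases shared with other genes may have gone uncounted. Their RPKM, and the shares and ratios built on it, carry that limit. In Control the order was Nptxr (97.7 ± 3.14 RPKM), Nptx1 (68.4 ± 3.26), C1ql3 (23.6 ± 0.859), Adgrb3 (18.6 ± 0.662), C1ql2 (12.9 ± 3.09), Nptx2 (4.57 ± 1.17), Cbln2 (3.93 ± 1.19), C1ql1 (2.51 ± 0.459), Cbln4 (1.96 ± 0.346) and Cbln1 (0.819 ± 0.451 RPKM, SD, n = 3). Neighbors whose Control libraries overlapped were Nptx2 and Cbln2, Cbln2 and C1ql1, and C1ql1 and Cbln4. Nptxr stood at percentile 98.9 of the genes tested and Cbln1 at percentile 14.5. In CBP-ifKO C1ql2 was at 2.77 ± 0.879 RPKM and its libraries overlapped those of Cbln2 (mean 3.71 RPKM), which it had exceeded in every Control library.

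**Figure D3:**
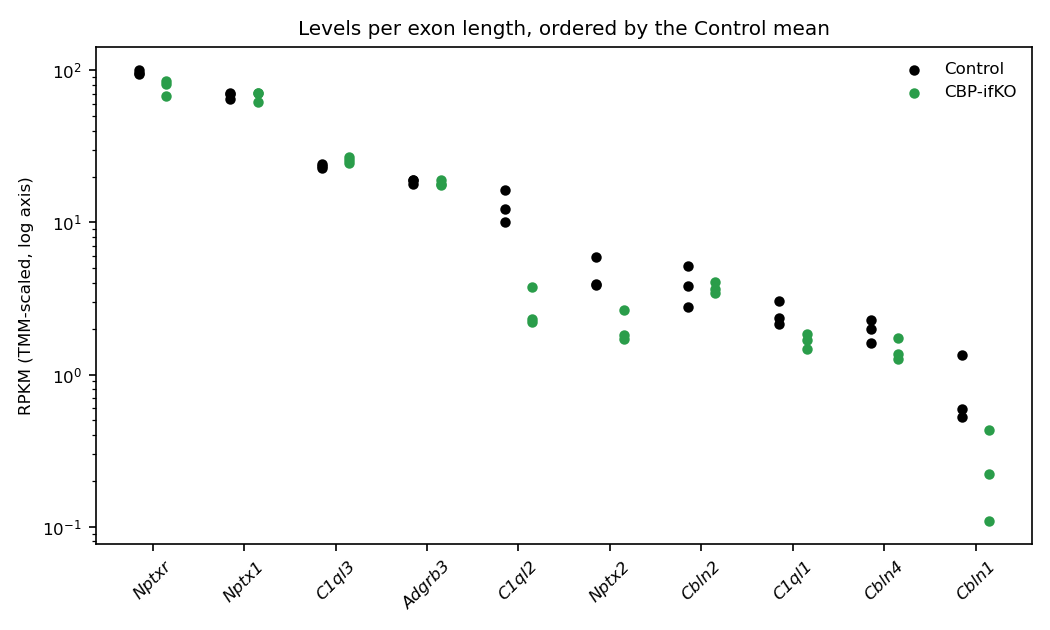
RPKM over the union of exons (y axis, log scale) of each gene in the 3 Control (black) and 3 CBP-ifKO (green) libraries, ordered by the Control mean. Levels span from 97.7 RPKM for Nptxr to 0.819 RPKM for Cbln1 in Control, and the C1ql2 and Cbln2 points, apart in Control, overlap in the mutant.

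The make-up of each family followed from these levels. The C1q-like genes summed to 36.2, 43.6 and 37.2 RPKM in Control and 28.8, 29.5 and 32.4 RPKM in CBP-ifKO, a mean of 38.98 ± 4.05 against 30.2 ± 1.87. The mean share of C1ql2 in that sum was 32.8% in Control and 9.07% in CBP-ifKO, and that of C1ql3 60.8% and 85.4%. Both shares carry the limit given above for the RPKM of C1ql3. The pentraxins summed to 170.6 ± 3.72 and 148.0 ± 14.6 RPKM, with Nptx2 at 2.69% and 1.38% of the sum. The cerebellins summed to 6.71 ± 1.07 and 5.42 ± 0.410 RPKM, most of it from Cbln2.

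Ratios of relatives within a library do not depend on how libraries are scaled, but trends on GC content and length were not removed from them. After that removal the log2 fold changes were -1.94 for C1ql2 and 0.17 for C1ql3, and 0.076 for Nptx1 and -0.14 for Nptxr. The ratio of C1ql2 to C1ql3 was 0.428, 0.666 and 0.545 in Control and 0.0900, 0.0894 and 0.141 in CBP-ifKO, a mean of 0.547 ± 0.119 against 0.107 ± 0.0294. The ratio of Nptx2 to Nptx1 was 0.0676 ± 0.0209 in Control and 0.0302 ± 0.00627 in CBP-ifKO, again without overlap. That of Nptx1 to Nptxr was 0.744, 0.668 and 0.688 against 0.829, 0.919 and 0.867, higher in every mutant library. The ratio of Cbln1 to Cbln2 overlapped between genotypes, with 0.115 to 0.349 in Control and 0.0268 to 0.126 in CBP-ifKO.

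**Figure D4:**
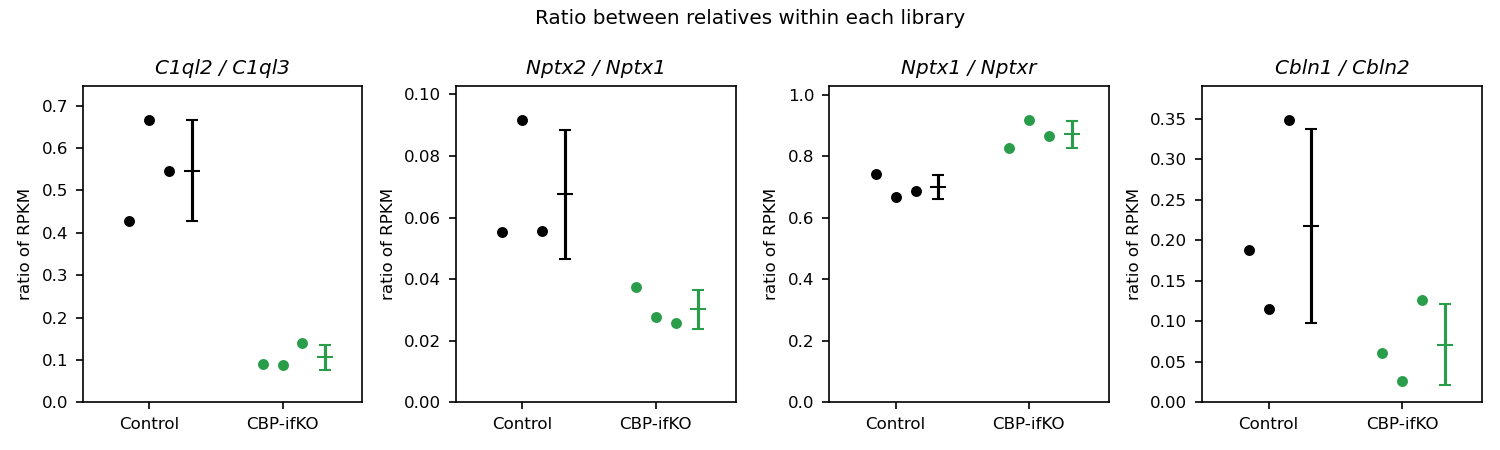
Ratio of RPKM between relatives (y axis, from 0) in each Control (black) and CBP-ifKO (green) library, with mean and SD beside the points. The ratios of C1ql2 to C1ql3 and Nptx2 to Nptx1 are lower and that of Nptx1 to Nptxr is higher in every mutant library, whereas the ratio of Cbln1 to Cbln2 overlaps.

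On the receptor side, 5 of 16 receptors and binding partners passed the threshold, all lower. Of all genes tested, 6.39% were called in either direction and 4.99% were called lower. The lists of partners, relatives and other organizers were chosen with earlier results of these data known, so nothing is read from such differences. The median log2 fold change of the 16 was -0.13. Nrxn2, a neurexin, fell from 109.9 ± 10.4 to 76.7 ± 8.39 CPM (log2 difference -0.52 ± 0.085 SE, adjusted p 0.00137 in edgeR). After removal of GC and length trends its value was -0.24 (adjusted p 0.0389). The BAI3 relatives Adgrb1 (147.8 ± 10.3 to 109.0 ± 15.3 CPM, -0.44, edgeR adjusted p 0.00526) and Adgrb2 (283.5 ± 19.6 to 210.5 ± 22.5 CPM, -0.43, edgeR adjusted p 0.0023) fell as well, unlike Adgrb3. Both calls were lost after removal of GC and length trends, at -0.15 for each gene, and with the replicate block added to it Adgrb2 was called (edgeR adjusted p 0.0378) and Adgrb1 was not (0.071).

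Grid1, which encodes the cerebellin receptor GluD1, fell from 81.9 ± 3.29 to 66.5 ± 2.50 CPM (-0.30, SE 0.066, edgeR adjusted p 0.0108), a call that failed when Control replicate 3 (adjusted p 0.0618) or CBP-ifKO replicate 2 (0.0714) or 3 (0.0552) was left out. Gria3, an AMPA receptor subunit, fell from 350.1 ± 19.3 to 303.4 ± 12.1 CPM (-0.21, edgeR adjusted p 0.0476). That call was lost with RLE or total-count scaling, with the replicate number as a block (adjusted p 0.0514) and without any of 5 libraries, so it sits at the threshold. Of those not called, Grik4, a kainate receptor subunit enriched in CA3, was at -0.22 (adjusted p 0.113), and Nrxn3 at -0.16 (adjusted p 0.225), called without Control replicate 2 (adjusted p 0.0176).

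Of 25 further genes of the gC1q and pentraxin families, 13 passed the filter and 2 were called, C1qtnf4 lower and C1qtnf12 higher. Over all genes tested 6.39% were called in either direction. The median log2 fold change of the 13 was -0.075. C1qtnf4, a secreted C1q and TNF-related protein, fell from 10.8 ± 4.59 to 4.81 ± 0.973 CPM (-1.18, SE 0.24, edgeR adjusted p 0.00672). The call was lost without CBP-ifKO replicate 2 (adjusted p 0.0683), and the value was -0.76 without Control replicate 2 and -0.69 after removal of GC and length trends. C1qtnf12 rose from 5.15 ± 0.690 to 8.13 ± 0.1101 CPM (0.66, SE 0.15, edgeR adjusted p 0.0157), a call lost without CBP-ifKO replicate 2 or 3. The remaining C1q-like gene C1ql4 was listed at 0 counts in every library, and Cbln3 was too low to be tested. Of those not called, Col8a1 was at -0.55 (edgeR adjusted p 0.413), C1qc at -0.33 (0.104) and C1qtnf7 at -0.28 (0.714).

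Among 16 tested genes for other secreted organizers, 2 were called, both lower, against 6.39% of all genes called in either direction and 4.99% called lower. Their median log2 fold change was -0.11. Thbs3, a thrombospondin, fell from 23.0 ± 1.51 to 11.4 ± 1.58 CPM (-1.02, SE 0.12, edgeR adjusted p 9.38e-05), and 6.59% of its exon bases are shared with Mtx1 on the other strand. Lgi3, of the LGI family of secreted synaptic proteins, fell from 77.3 ± 8.80 to 56.0 ± 6.21 CPM (-0.47, SE 0.092, edgeR adjusted p 0.00489). Chrdl1 (-0.37, edgeR adjusted p 0.305), Thbs1 (-0.31, 0.515) and Fgf22 (0.30, 0.678) were not called.

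Markers of the cell types of the hippocampus were examined beside these genes. Of all genes tested, 6.39% were called in either direction. The marker lists were chosen with earlier results of these data known, so nothing is read from differences to that share. For dentate granule cells, whose mossy fibers are a source of C1q-like proteins, 3 of 8 markers were called, Trpc6 and Tdo2 lower and Lct higher. Their summed level overlapped between genotypes, at 744.8 to 797.5 CPM in Control and 744.9 to 803.4 CPM in CBP-ifKO. For CA1, 4 of 5 were called lower, and the 5 summed to 349 to 361 against 222 to 236 CPM. For CA2, 1 of 5 was called lower, Rgs14 (mean 74.3 to 31.2 CPM). The 5 CA2 markers summed to 127 to 145 against 83.9 to 96.1 CPM. The other CA2 markers were not called, at -0.11 (Amigo2), -0.03 (Pcp4), 0.50 (Map3k15) and -0.02 (Cacng5) on the log2 scale. For CA3, 1 of 5 was called lower, Prss35 (mean 9.84 to 6.03 CPM). The 5 CA3 markers summed to 98.2 to 110.6 against 80.2 to 91.5 CPM. For interneurons, 2 of 8 were called lower, and the 8 summed to 558 to 593 against 505 to 538 CPM. None of 6 astrocyte, 6 microglia, 6 oligodendrocyte, 5 endothelial and 4 tested choroid plexus markers were called, and no marker of any list was at 0 in all 6 libraries. Their part in the results was not tested.

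RefSeq promoter sequences were at hand for 4 of the 10 genes: C1ql2, C1ql3, Cbln4 and Adgrb3. The 250 bases before the start are shown for the 3 ligands, since C1ql2 and C1ql3 diverged in the mutant, with capitals at matches to the CREB half-site TGACG on either strand (GRCm38.p6). They lie at chr1:120340332-120340581 on the plus strand (C1ql2), chr2:13010865-13011114 on the minus strand (C1ql3) and chr2:172043467-172043716 on the minus strand (Cbln4).
C1ql2: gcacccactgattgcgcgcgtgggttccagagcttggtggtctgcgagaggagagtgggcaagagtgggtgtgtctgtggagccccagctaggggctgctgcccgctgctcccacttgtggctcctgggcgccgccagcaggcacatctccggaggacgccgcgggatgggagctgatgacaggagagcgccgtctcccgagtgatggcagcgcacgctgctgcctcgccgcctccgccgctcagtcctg
C1ql3: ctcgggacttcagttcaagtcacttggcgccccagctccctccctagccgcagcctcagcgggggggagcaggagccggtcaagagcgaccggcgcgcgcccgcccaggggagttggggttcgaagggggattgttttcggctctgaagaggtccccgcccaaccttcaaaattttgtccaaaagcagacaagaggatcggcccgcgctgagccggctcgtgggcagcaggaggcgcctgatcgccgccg
Cbln4: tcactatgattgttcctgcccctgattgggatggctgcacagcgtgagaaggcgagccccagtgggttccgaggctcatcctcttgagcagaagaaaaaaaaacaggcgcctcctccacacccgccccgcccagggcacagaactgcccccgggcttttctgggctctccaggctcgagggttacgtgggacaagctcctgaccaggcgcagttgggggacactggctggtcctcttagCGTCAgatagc
The palindrome TGACGTCA, which contains the half-site on both strands, was in none of the 4 sequences and in 1.55% of 32851 promoters of the same length. The half-site was in 1 of the 4, 11 bases before the start of Cbln4 and on the opposite strand, and in 17.8% of all promoters. All 4 were richer in G and C than the median promoter (52.4%), with 68.8% for C1ql2 and 66.4% for C1ql3. These matches are a description of the letters and were not read as sites.

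The fits were repeated in 15 other ways, and the plot of log2 fold changes under each way of fitting shows how far the genes moved. C1ql2 stayed between -2.50 and -1.94 and Nptx2 between -1.38 and -0.94, and both were called in all of them. Cbln1 ranged from -2.34 to -1.17. Control replicate 2 was the highest Control library for 5 of the 10 genes, among them C1ql2 and Nptx2.

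**Figure D5:**
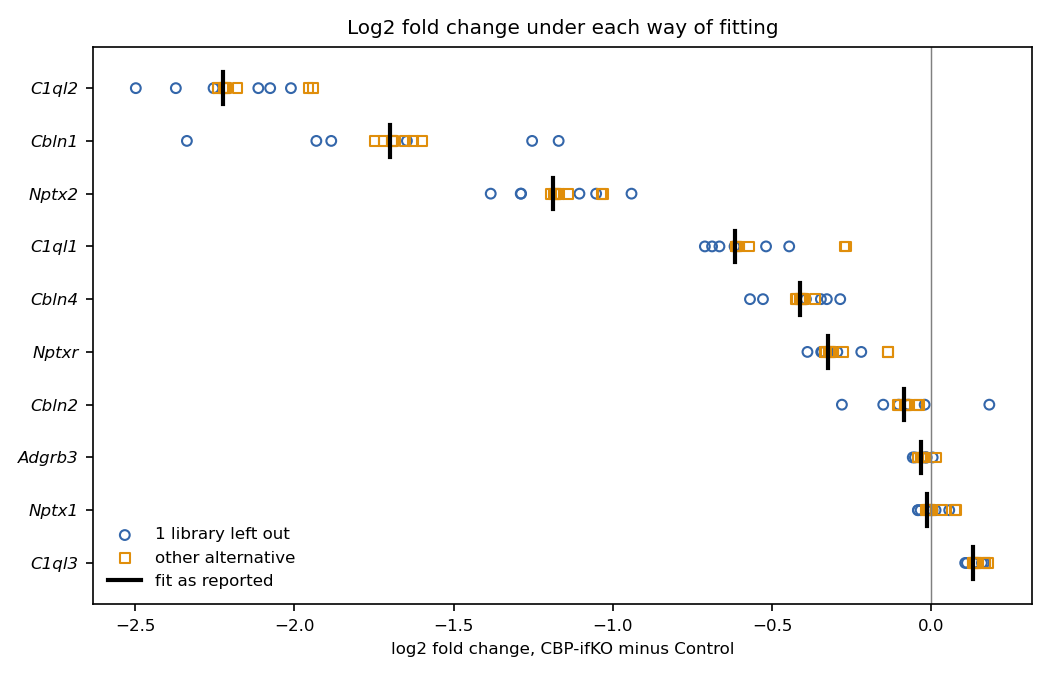
Log2 fold change (x axis, CBP-ifKO minus Control) of each gene as reported (black bar), with 1 library left out (circles) and under the other alternatives (squares). C1ql2 and Nptx2 stay below 0 throughout, while Nptx1, Adgrb3 and Cbln2 lie on both sides of 0.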

How the data were processed

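Hippocampal RNA from 3 Control and 3 CBP-ifKO samples was sequenced single-end with reads of 50 bases. The authors trimmed reads (Trim Galore 0.6.4), aligned them to GRCm38 with STAR (2.6.1) and counted them over exons with Rsubread, and per the submitters' processing notes also used FastQC 0.11.8 and DESeq2 1.30.1. They deposited raw counts per gene without normalization. Whether counting used strand is not given in the sources used here. Of 55471 gene identifiers, 99.57% matched GENCODE of the same build, which gave symbols, coordinates, exon unions and GC content.

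Genotypes were compared over all genes with the quasi-likelihood F-test of edgeR (4.0.16, R 4.3.3), with TMM scaling, filterByExpr (minimum count 10, total 15) and Benjamini-Hochberg adjustment, at an adjusted p under 0.05. The SE is the log2 fold change divided by the square root of F. Levels are TMM-scaled CPM, or RPKM over exon unions, as mean ± SD. Total counts were 10199008 to 14950257 per library and the common coefficient of variation over all genes was 6.81%. Scarce genes spread more. Between Control libraries the coefficient of variation of CPM was 55.1% for Cbln1, 30.3% for Cbln2, 25.6% for Nptx2, 18.3% for C1ql1 and 17.6% for Cbln4. Counting error and differences between libraries both enter these values. Replicates differed by more than sampling noise (chi-square per degree of freedom at least 2.46).

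The 10 genes, the lists of partners, relatives, other organizers and cell markers, and the naming rule were chosen with earlier results of these data known. The rule named all 10, Crebbp, Esr1, in each list the genes called plus up to 3 others of largest fold change (mean at least 1 CPM), and the 5 genes most like C1ql2. An item of the partner list is not reported here by name. Overlapping genes, cell markers and genes listed at 0 are named outside it. The alternatives were DESeq2 (1.42.0), limma-voom (3.58.1), RLE or total-count scaling, no filter, leaving out each library, a minimum of 10 counts in all 6, the replicate number as a block, per-library GC and length trends removed as offsets, and the latter with the block. The fit was tested on simulated counts. Promoters came from RefSeq (GRCm38.p6), and coding sequences from GENCODE.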

Additional observations from a re-analysis of the deposited data

How the results depend on the processing

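With 1 library left out, between 498 (CBP-ifKO replicate 2) and 1326 genes were called, with 546 when it was Control replicate 3 and 526 when it was CBP-ifKO replicate 3. Of the 10 genes, 2 to 4 were called in these fits. The partner list gave 3 to 6 calls and the family relatives 0 to 2. DESeq2 called 953 genes and 3 of the 10, giving no adjusted p for Cbln1 and C1ql1, and requiring 10 counts in all 6 libraries removed Cbln1. Removal of GC and length trends left 3 of the 10 called (without Nptxr) and moved their median from -0.37 to -0.20.

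Replicate numbers did not mark shared animals or days in the labels, and the deviations of same-numbered samples correlated at 0.077, 0.037 and 0.0022, with 3 of 6 samples matched best by their own number. The replicate block called 1210 genes and 4 of the 10. Combined with GC and length offsets it called 1837 genes and 4 of the 10. Among the 10 genes, signs turned in Nptx1, Adgrb3 and Cbln2. Nptx1 was 0.034 with library totals, 0.076 with GC and length offsets, 0.078 with these and the block, and -0.042 to 0.057 with 1 library left out, among them 0.014 and 0.0041 without Control replicates 1 and 3. Adgrb3 was 0.015 with library totals and -0.058 to 0.0045 with 1 library left out. Cbln2 was -0.28 to 0.18. Library totals moved the median of all genes to 0.043. The causes of these shifts were not tested. Counts under about 50 per library limit Cbln1 and C1ql1.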

Other observations

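The genes whose log2 CPM followed that of C1ql2 most closely over the 6 libraries were Lhfpl3 (Pearson's r 0.996), Lonrf1 (0.994), Acap3 (0.994), Col5a1 (0.994) and Mettl11b (0.993). Their log2 fold changes were -0.47, -0.44, -0.46, -1.03 and -0.69, of which that of Mettl11b did not pass the threshold (edgeR adjusted p 0.135). Among its relatives and partners, Nptx2 and C1ql1 (0.886 each) and Nptxr (0.845) came closest, and C1ql3 was at -0.675. The libraries of both genotypes enter these values, so a difference between genotypes alone gives a high r, and they are given as a description.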
